A study of Mus musculus with 60 samples.

Results

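Ctrl MCM2-2A cells are mouse embryonic stem cells (mESCs, line E14JU) in which POLE4 carries a dTAG degron and MCM2, a subunit of the replicative helicase, carries the 2A mutation of its histone-binding domain. Their first 12 h of retinoic acid (RA) were covered by 6 of the 60 RNA libraries of the series, chosen by group label: 3 from cells before RA (T0) and 3 from cells after 12 h of RA (T12). T0 cells had received DMSO for 24 h in serum with LIF, and T12 cells had received the same DMSO treatment and then 12 h of RA in medium without LIF. For comparison, the same interval was taken in 6 libraries of Ctrl cells (POLE4-dTAG with wild-type MCM2, DMSO) and in 6 libraries of dPOLE4 MCM2-2A cells (POLE4-dTAG, MCM2-2A, given dTAG in place of DMSO to degrade POLE4). The DMSO groups carried the tagged POLE4 as well, so that an effect of the tag is present in every group.

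The model has 3 limits that bear on every value. Tagged lines were expanded from picked clones, and the labels give 1 line number for each MCM2 genotype, so that the mutation and the clone cannot be told apart. RA addition, LIF removal and 12 more hours of culture fell together, and cells kept for those hours without RA were not analysed here, so that these cannot be told apart either. The libraries held RNA of whole cultures, in which fewer cells of a type and less RNA per cell cannot be told apart.

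RA, a derivative of vitamin A, enters the nucleus and binds the retinoic acid receptors RARα, RARβ and RARγ. These sit on DNA as pairs with a retinoid X receptor (RXR), often at a repeat of a short hexamer called a retinoic acid response element, and switch from repression to activation when RA binds. In mESCs, which stay pluripotent in serum as long as LIF keeps STAT3 active, RA without LIF starts differentiation, and the Hox genes that pattern the head-to-tail axis are among the best known genes it turns on. Cells also limit RA themselves, since CYP26 enzymes that degrade it are RA targets.

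Total counts lay between 13551576 and 42776956 in the 6 libraries, and the first principal component, with 60.2% of the variance, separated T0 from T12. On the second, with 15.6%, T0 replicate 1 lay apart from the other T0 libraries (23.9 against -12.3 and -8.99), and T12 replicates 2 and 3 lay at -23.8 and 23.1. Mitochondrial genes held between 1.06% and 2.40% of the counts, with T0 replicate 1 at 1.06% and T12 replicate 3 at 1.46%. Pole4 RNA, which the degron does not target, was at 33.2 ± 1.03 CPM (read counts scaled to the normalized library size, mean ± SD, n = 3) at T0 and 34.3 ± 3.86 at T12, and Mcm2 RNA was at 311 ± 34.2 and 283 ± 19.2 CPM. All 9 ES cell markers were above 1 CPM at both times, with a summed level of 5025 to 5592 CPM at T0 and 3584 to 3799 CPM at T12. Of 7 fibroblast markers, 5 were under 1 CPM at both times.

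By edgeR's quasi-likelihood test, 1545 of 17856 tested features (genes and repeat subfamilies), or 8.65%, were called at T12 against T0, where called means a Benjamini-Hochberg adjusted p under 0.01 and a log2 fold change beyond 0.58 in size. Of these, 929 rose (5.2% of those tested) and 616 fell (3.45%). The counts of called list members given below are to be read beside these shares. The median log2 fold change was 1.06 among the features that rose and -0.96 among those that fell, against 0.02 over all tested. A total of 128 rose by more than 2 on the log2 scale and 45 fell by more than 2. Protein-coding genes made up 856 of the features that rose and 540 of those that fell. The 12 named genes with the highest fold change were 10 Hox genes with Cyp26a1 and Cyp26b1, and the 12 with the lowest were Ly6g6e, Foxd3, Mycn, Sgk1, Glod5, Apol6, Lrrn2, Msc, Slc27a2, Socs3, Enox1 and Ms4a10.

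The clearest rise outside the Hox clusters was that of Cyp26a1 (ENSMUSG00000024987), which encodes an enzyme that degrades RA. It was at 0.977, 0.842 and 1.27 CPM in the 3 T0 libraries and at 135, 116 and 157 CPM in the 3 T12 libraries, so that the groups lay far apart, with a log2 fold change of 6.97 ± 0.15 (SE, adjusted p = 2.21e-10). Rarb (ENSMUSG00000017491), which encodes the receptor RARβ, is known to be turned on by RA through a response element close to its start. It was at 0.279, 0.918 and 0.366 CPM at T0 and 8.23, 7.48 and 10.6 CPM at T12, again without overlap, with a log2 fold change of 4.30 ± 0.29 (adjusted p = 8.73e-07). For these genes the 120 bases before the annotated RefSeq start (build GRCm38.p6) are shown because both windows hold a DR5, a direct repeat of receptor half-sites spaced by 5 bases. The capitals mark the repeat, which in Cyp26a1 lies 32 to 16 bases before the start (chr19:37697688-37697807, plus strand) and reads on the opposite strand, and in Rarb lies 53 to 37 bases before it (chr14:16575477-16575596, minus strand) and reads with the gene.

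Cyp26a1: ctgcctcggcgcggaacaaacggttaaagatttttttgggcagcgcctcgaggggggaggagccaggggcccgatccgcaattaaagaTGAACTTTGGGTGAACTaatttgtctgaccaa

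Rarb: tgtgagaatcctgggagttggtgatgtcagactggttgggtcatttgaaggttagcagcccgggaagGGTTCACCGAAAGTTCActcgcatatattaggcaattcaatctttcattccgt

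The search took the half-sites AGGTCA or AGTTCA or GGGTCA or GGTTCA on both strands, from 250 bases before to 50 bases after the start. Such a repeat was in 32 of 32851 promoter windows (0.0974%). A gene can have several windows, and 8 of the 11531 tested genes with a window held such a repeat. Of those 8 genes, 3 rose (Cyp26a1, Rarb and Ppbp), 2 fell (Cfap45 and Gm1043) and 3 were not called, where 5.67% of all tested genes with a window rose. With a spacing of 2 bases 13 tested genes held a repeat, of which 3 rose, and with a spacing of 1 base 35 did, of which 1 rose and 1 fell. A match is a description of the letters and not a bound site.

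Of the 6 RA receptor genes, all of which were tested, 3 rose and none fell (median log2 fold change 0.40). Rara rose from 85.6, 73.3 and 67.5 CPM to 119.6, 108 and 130.2 CPM (log2 fold change 0.70 ± 0.09, adjusted p = 0.000125), and every T12 library lay above every T0 library. Rxrg rose from 1.95, 1.61 and 1.63 CPM to 3.04, 3.74 and 3.13 CPM (log2 fold change 0.97 ± 0.20, adjusted p = 0.00375) and stayed a low-level gene. Its call was lost without either of T0 replicates 2 and 3 or T12 replicates 1 and 2, with an adjusted p of up to 0.0208. The 3 receptor genes that were not called included Rarg, at 479.6, 438 and 418 CPM at T0 and 361, 348 and 385 CPM at T12, whose difference of -0.25 on the log2 scale missed both thresholds (adjusted p = 0.0164). Rxra had a log2 fold change of -0.43 (adjusted p = 0.00214), under the size threshold, and Rxrb one of 0.10. Per kilobase of exon, Rarg was the highest of the 6 at both times, at 104.6 CPM at T0 and 85.5 CPM at T12. Rara came next at T12 (27.3 CPM per kilobase), followed by Rxrb (17.1) and Rxra (4.53), and Rarb (1.67) and Rxrg (1.44) were lowest.

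**Figure D1:**
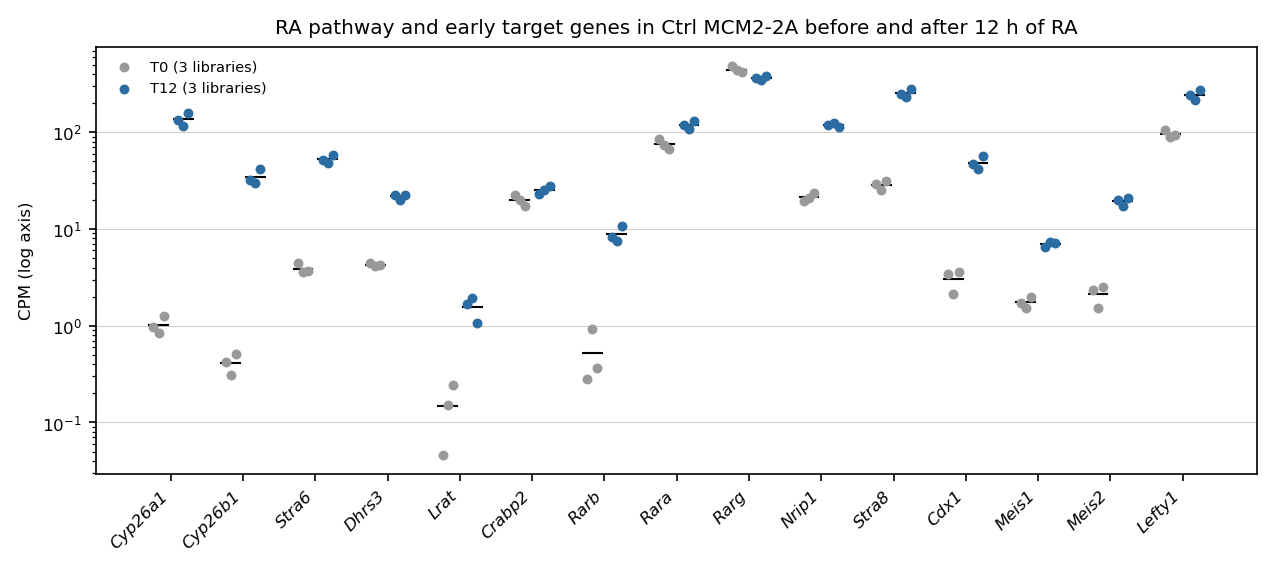
Level in CPM (log axis) of 15 RA pathway and early target genes in the 3 T0 libraries (grey) and the 3 T12 libraries (blue) of Ctrl MCM2-2A cells, with a bar at each group's mean. The groups do not overlap for any gene shown, and Cyp26a1, at about 1 CPM before RA, is above 100 CPM in every T12 library. Over all tested features, every T12 library lay above every T0 library for 18.6% and below for 21.9%.

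Among the genes of RA metabolism and transport, those that break down RA and those that take up and store its precursor rose. Of 19 listed, 17 were tested, 7 rose and none fell, with a median log2 fold change of 0.68 against 0.02 over all features. Over all tested features 5.2% rose. Cyp26b1 and Lrat were so low at T0 that they passed the filter on low counts mainly through T12. A difference was thus built in for them, and the count of genes that rose is no independent evidence of a direction. Cyp26b1, a second RA-degrading enzyme, was at 0.419, 0.306 and 0.512 CPM at T0 and 32.5, 29.6 and 41.3 CPM at T12, a log2 fold change of 6.28 ± 0.19 (adjusted p = 2.51e-09). The third family member, Cyp26c1, was under 1 CPM on average at both times and was not called. Stra6, the membrane receptor that takes up vitamin A from its carrier, rose from 4.42, 3.60 and 3.68 CPM to 51.4, 48.2 and 58.8 CPM (3.79 ± 0.11, adjusted p = 1.86e-09). In both of these the lowest T12 library was several times the highest T0 library.

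Dhrs3, which reduces retinal to retinol and so lowers the supply of RA, rose from 4.42, 4.13 and 4.196 CPM to 22.7, 19.8 and 22.7 CPM (log2 fold change 2.39 ± 0.11). Lrat, which esterifies retinol for storage, rose by 3.23 ± 0.45 on the log2 scale from a mean of only 0.148 CPM, and Rdh12, a retinal reductase, rose by 1.54 ± 0.29. The genes that make RA from retinal were not called. Aldh1a2 was at 1.53 ± 0.324 CPM at T0 and 2.34 ± 0.399 CPM at T12, Aldh1a3 at 0.611 ± 0.0689 and 0.817 ± 0.160 CPM, and Aldh1a1 was too low to be tested. Rdh10, which feeds them retinal, had a log2 fold change of -0.03 ± 0.12. Crabp2, which carries RA to the receptors, was at 22.5, 20.1 and 17.5 CPM at T0 and 23.0, 25.0 and 27.8 CPM at T12, so that its groups did not overlap, but its log2 fold change of 0.37 missed both thresholds (adjusted p = 0.0212).

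Among 10 cofactors of the receptors, of which 9 were tested, 1 rose and 1 fell. Nrip1, a corepressor that binds the ligand-bound receptor, rose from 19.4, 20.9 and 23.5 CPM to 119, 124 and 112 CPM (log2 fold change 2.50 ± 0.09, adjusted p = 3.83e-09). Tgif1, a homeobox repressor of RA and Nodal responses, fell from 150.5, 152 and 146 CPM to 74.8, 75.2 and 77.6 CPM (-0.94 ± 0.06, adjusted p = 4.21e-07). The other 7 were not called, and the nuclear receptor corepressor Ncor1 had a log2 fold change of -0.00 ± 0.06. Of the 6 genes that the study follows as an early RA response, 5 rose, but the study chose them with these samples at hand and they are no independent evidence of a direction. Beside Cyp26a1 these included Lefty1 (107, 89.1 and 92.6 CPM to 241, 215 and 272 CPM, 1.37 ± 0.09), Sox3 (1.39 ± 0.18) and Sox1 (1.26 ± 0.17). Lefty2, at 124, 129 and 108 CPM and 145, 130.4 and 154 CPM, had a log2 fold change of 0.29 ± 0.08 and was not called (adjusted p = 0.0218).

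Hox genes held 10 of the 12 highest fold changes among genes that averaged at least 2 CPM at T12, and their rise lay in HoxA and HoxB. Of the 39 Hox genes, 24 passed the filter on low counts, 21 rose and 1 fell. Of those 24, 17 were under 0.5 CPM in at least 1 T0 library and so passed mainly through T12, which means that many of them had to differ. The other 15 stayed at a mean of at most 0.653 CPM at T12, and 13 of them belong to HoxC and HoxD. Summed over all 39 genes, the level was 17.2 CPM at T0 and 249 CPM at T12.

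In HoxA (chr6:52155590-52260880, mm10), 9 of 11 genes were tested and all 9 rose, by 3.37 to 7.45 on the log2 scale, with a median of 4.72. Hoxa5 had the largest fold change of all tested features, from 0.140, 0.306 and 0.0732 CPM to 23.3, 21.9 and 26.4 CPM (7.45 ± 0.24, adjusted p = 2.68e-09). Hoxa4 rose from 0.140, 0.230 and 0.171 CPM to 9.54, 11.9 and 13.3 CPM (6.05 ± 0.25). For Hoxa6 the 3 T0 libraries held 2 reads in all, and the ratio of normalized counts was 37.4 with a 95% counting interval from 9.81 to 317. Hoxa11 and Hoxa13, at the 5′ end, were not tested. Of the 11 HoxA genes 6 overlap another annotated gene on the same strand, where reads could be shared, and their values are less certain for that.

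In HoxB (chr11:96194316-96368256), all 10 genes were tested and all 10 rose, by 1.91 to 6.69, with a median of 5.91. Hoxb1, a marker of hindbrain identity in the embryo, rose from 0.419, 0.230 and 0.342 CPM to 24.2, 18.1 and 20.2 CPM (5.93 ± 0.20, adjusted p = 3.83e-09). Hoxb2 rose from 0.372, 0.153 and 0.146 CPM to 22.6, 18.9 and 24.8 CPM (6.69 ± 0.23) and Hoxb4 from 0.930, 0.536 and 0.512 CPM to 23.7, 18.1 and 23.2 CPM (5.10 ± 0.20). The smallest rise of the cluster was that of Hoxb9, which already stood at 3.26, 2.07 and 2.22 CPM before RA and reached 8.23, 9.03 and 10.5 CPM (1.91 ± 0.18). Per kilobase of exon, levels at T12 were led, among the genes named here, by Hoxa5 (12.7 CPM), Hoxb1 (8.96), Hoxb4 (8.45), Hoxa4 (7.27) and Hoxb2 (6.33).

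HoxC and HoxD gave few values. Hoxc4 rose from 0.419, 0.765 and 0.488 CPM to 2.36, 2.42 and 2.29 CPM (2.19 ± 0.28, adjusted p = 0.000137) and Hoxd1, the 3′-most gene of its cluster, from 0.233, 0.0765 and 0.244 CPM to 0.839, 0.690 and 1.30 CPM (2.14 ± 0.44, adjusted p = 0.00380). Hoxc12 fell from 0.930, 1.22 and 0.732 CPM to 0.262, 0.230 and 0.153 CPM (-1.98 ± 0.42, adjusted p = 0.00504). The calls of Hoxd1 and Hoxc12, which stayed under 2 CPM in every library, were lost when single libraries were left out, with an adjusted p of up to 0.0175 and 0.0210. Hoxc13 and Hoxd13 were measurable at both times and were not called, with log2 fold changes of -0.22 ± 0.26 and 0.24 ± 0.24.

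**Figure D2:**
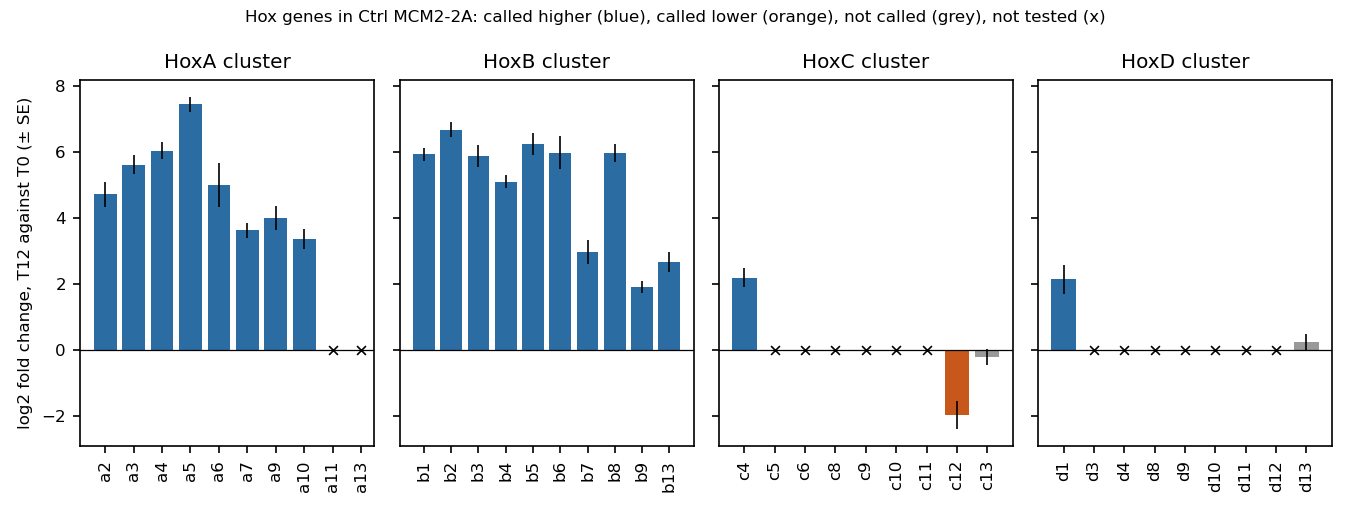
Log2 fold change at T12 against T0 in Ctrl MCM2-2A cells, with its standard error, for the Hox genes in the order of its number within each cluster (blue, rose; orange, fell; grey, not called; x, not tested). All tested genes shown of HoxA and HoxB rose, while most genes of HoxC and HoxD were too low to be tested.

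Among homeobox genes outside the clusters, the Hox cofactors of the TALE class rose in part: 5 of 11 rose and 1, Tgif1, fell. Meis2 rose from 2.33, 1.53 and 2.49 CPM to 19.9, 17.2 and 20.8 CPM (log2 fold change 3.15 ± 0.15, adjusted p = 6.32e-08) and Meis1 by 1.99 ± 0.17. Of their partners, Pbx2 rose by 0.99 ± 0.07 and Pbx3 by 0.75 ± 0.12, while Meis3, Pbx4, Pknox1, Pknox2 and Tgif2 were not called.

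Of 20 other homeobox and caudal genes, 15 were tested, 7 rose and 2 fell. Cdx1, a caudal regulator of Hox genes and a direct RA target, rose from 3.44, 2.14 and 3.59 CPM to 47.3, 41.4 and 56.3 CPM (3.94 ± 0.16, adjusted p = 1.18e-08), and Cdx2 rose by 1.20 ± 0.24. Tlx2 (2.18), Msx1 (1.51), Irx3 (1.31) and Msx2 (0.80) rose as well. Otx2, which specifies forebrain and midbrain and the formative state of pluripotency, fell from 39.4, 38.5 and 32.5 CPM to 11.6, 13.5 and 11.8 CPM (-1.54 ± 0.10, adjusted p = 7.16e-07). Evx1, a homeobox gene of the primitive streak that neighbours HoxA, fell from a mean of 0.939 CPM to 0.120 CPM (-2.81 ± 0.53).

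Genes that hold mESCs in the naive state were lower at T12, while the core factor Pou5f1 stayed within the size threshold. Of the 13 naive and self-renewal genes that the study follows, 10 fell and none rose (median log2 fold change -0.81). The study shows this list for these samples, so that its direction is not independent evidence. Nanog fell from 435, 408 and 416 CPM to 194, 235 and 194 CPM (log2 fold change -0.98 ± 0.08, adjusted p = 4.92e-06), and the groups did not overlap. Klf4 fell from 209, 164 and 162 CPM to 67.2, 64.6 and 72.8 CPM (-1.35 ± 0.09, adjusted p = 7.68e-07), and Prdm14, which keeps DNA methylation low in naive cells, from 20.4, 19.7 and 18.3 CPM to 6.92, 7.02 and 7.26 CPM (-1.42 ± 0.10, adjusted p = 1.10e-06). Zfp42 (-1.13), Nr5a2 (-1.13), Pramel6 (-1.10), Dppa3 (-0.81), Tfcp2l1 (-0.66), Klf2 (-0.65) and Sox2 (-0.62) fell too. Pou5f1, which encodes OCT4, was at 1055, 891 and 913 CPM at T0 and 686, 683 and 796 CPM at T12, and its log2 fold change of -0.37 ± 0.08 passed the p threshold (adjusted p = 0.00657) but not the size threshold. Pecam1, an adhesion molecule of naive cells, had a log2 fold change of 0.37 ± 0.06, likewise under the size threshold, and Pramel7 one of -0.43 ± 0.20.

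In a wider list of 23 other pluripotency genes, all tested, 10 fell and none rose (median -0.55). Esrrb, a nuclear receptor of the naive network, fell from 423, 404 and 379.9 CPM to 169, 177 and 179.9 CPM (-1.16 ± 0.06, adjusted p = 1.56e-07). Others were the secreted Spp1 (-1.41), Tcl1 (-1.20), Fbxo15 (-1.17), Klf5 (-1.13), Sall1 (-1.07), the Nodal co-receptor Tdgf1 (-0.97), Nr0b1 (-0.88), Tet1 (-0.83) and Trh (-1.41). Members that were not called included Dppa5a at 1016 ± 68.1 CPM and 1089 ± 25.4 CPM, Tbx3 (0.15 ± 0.07) and Lin28a (-0.24 ± 0.07). Of the 8 formative genes that the study follows, 7 were tested, Sox4 rose (0.64 ± 0.10) and Otx2 fell, and Fgf5, a formative marker, was at 1.83 ± 0.401 CPM and 1.28 ± 0.116 CPM and was not called.

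**Figure D3:**
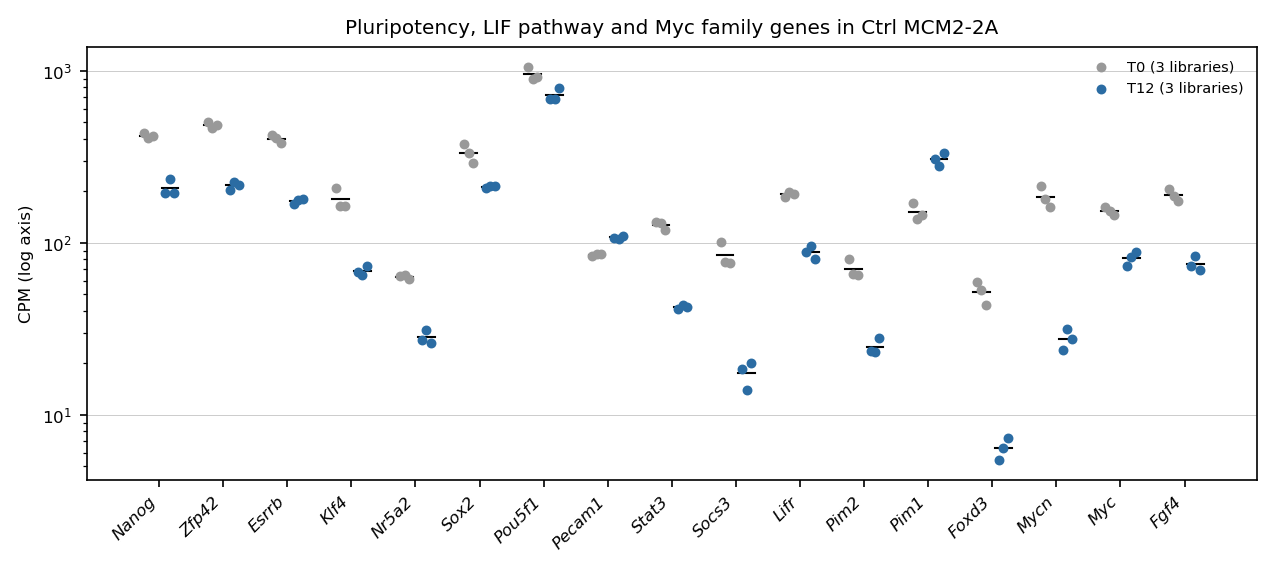
Level in CPM (log axis) of pluripotency and LIF pathway genes in the 3 T0 libraries (grey) and the 3 T12 libraries (blue) of Ctrl MCM2-2A cells, with a bar at each group's mean. Most genes sit lower at T12 with no overlap, Pou5f1 is little lower, and Pim1 and Pecam1 sit higher. Over all tested features, every T12 library lay below every T0 library for 21.9%.

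In the LIF pathway most of the called genes fell. Of 29 listed genes, 28 were tested, 15 fell and 3 rose (median -0.63). Those that fell include Klf4, Klf5 and Tfcp2l1, which the pluripotency lists above also count. Socs3, the feedback inhibitor that STAT3 turns on, fell from 100.3, 77.6 and 76.5 CPM to 18.5, 13.9 and 19.9 CPM (-2.25 ± 0.13, adjusted p = 2.32e-07). Stat3 itself fell from 132, 129 and 118 CPM to 41.0, 43.3 and 42.0 CPM (-1.55 ± 0.07, adjusted p = 2.44e-08), with the groups far apart. At the receptor, Lifr fell from 183, 196 and 192 CPM to 87.9, 95.8 and 80.5 CPM (-1.08 ± 0.08) and Il6st, which encodes gp130, fell too (-0.68 ± 0.07). Among further targets, Pim2 (-1.48), Icam1 (-1.41), Bcl3 (-1.25), Tgm1 (-0.84), Junb (-0.79), Socs2 (-0.75), Cish (-0.74) and Pim3 (-0.60) fell. The kinase gene Pim1 went the other way, from 171, 137 and 145 CPM to 307, 279.6 and 332 CPM (1.06 ± 0.08, adjusted p = 3.25e-06), and Stat5b (0.65) and Jak2 (0.59) rose too. Jak1, Tyk2, Ptpn11 and Socs1 were not called, with log2 fold changes of 0.22, 0.02, 0.10 and -0.14.

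The genes with the lowest fold changes were mostly not members of these lists. Ly6g6e, a small surface protein, fell from 9.25, 7.50 and 6.12 CPM to 0.682, 0.403 and 0.764 CPM (-3.59 ± 0.26, adjusted p = 1.35e-06). Foxd3, a forkhead factor that mESCs need for self-renewal, fell from 59.2, 53.3 and 43.2 CPM to 5.45, 6.44 and 7.34 CPM (-2.99 ± 0.14, adjusted p = 3.57e-08). Sgk1, a kinase induced by serum and glucocorticoids, fell from 141, 154 and 134 CPM to 21.9, 26.6 and 24.2 CPM (-2.53 ± 0.09, adjusted p = 3.83e-09). All 3 lay well apart between the groups. Enox1 (-2.24) and Slc27a2 (-2.28) were at 56.9 and 13.1 CPM at T0, while Glod5, Apol6, Lrrn2, Msc and Ms4a10 were under 6 CPM on average and fell with log2 fold changes between -2.52 and -2.21.

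MYC supports the growth of mESCs. Of 10 genes of the MYC network, 2 fell and 1 rose. Mycn fell from 214, 179.7 and 160.2 CPM to 23.7, 31.6 and 27.7 CPM (-2.70 ± 0.12, adjusted p = 2.52e-08), far more than Myc, which fell from 160.4, 153 and 145 CPM to 73.3, 82.7 and 88.2 CPM (-0.87 ± 0.07, adjusted p = 4.90e-06). Mxd4, a MAX partner that opposes MYC, rose by 0.87 ± 0.12.

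Of 27 genes of FGF signalling through ERK, 26 were tested, 9 fell and 1 rose (median -0.18). Among the ligands, Fgf4, the main FGF of mESCs, fell from 204, 186 and 175 CPM to 72.8, 83.4 and 69.8 CPM (-1.28 ± 0.08, adjusted p = 5.35e-07), and Fgf17 (-1.58) and Fgf15 (-1.07) fell as well. Of the receptors none was called, and Fgfr1 and Fgfr2 had log2 fold changes of 0.22 ± 0.07 and -0.13 ± 0.07. The feedback inhibitors split. Spry2 fell from 179, 149 and 158 CPM to 54.2, 62.0 and 66.2 CPM (-1.38 ± 0.08) and Spry4 fell (-0.72), whereas the ERK phosphatase gene Dusp5 rose (0.86 ± 0.10) and Dusp6 had a log2 fold change of 0.55 ± 0.06, just under the size threshold. Of the ERK target genes, Etv5 (-0.77), Egr1 (-0.80) and Fos (-1.16) fell and Etv4 was not called (-0.00 ± 0.07).

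In the Nodal and TGF-β pathway, 18 of 20 genes were tested, 3 rose and 2 fell (median 0.15). Nodal itself was at 108, 87.8 and 96.2 CPM at T0 and 96.4, 91.3 and 101 CPM at T12, so that its groups overlapped (0.02 ± 0.07). Its target and inhibitor Lefty1 rose, as given above, with Skil, a SMAD corepressor (167, 169 and 169.7 CPM to 348, 329 and 313 CPM, 1.01 ± 0.07). The co-receptor gene Tdgf1 fell from 734, 679 and 709 CPM to 341, 352 and 366 CPM (-0.97 ± 0.06), and Smad7, an inhibitory SMAD, fell as well (-0.68 ± 0.07).

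In the BMP pathway, 13 of 16 genes were tested, 3 rose and 2 fell (median 0.39). The target genes Id2 (11.7, 10.6 and 11.98 CPM to 28.0, 30.3 and 25.4 CPM, 1.32 ± 0.10) and Id1 (0.62 ± 0.08) rose with the inhibitory Smad6 (1.07 ± 0.12), while the ligand Bmp4 fell from 26.7, 28.2 and 26.0 CPM to 15.8, 17.3 and 16.6 CPM (-0.67 ± 0.09) and the antagonist Chrd fell too (-0.91 ± 0.21). Id3 was not called (0.20 ± 0.07).

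Of 25 genes of the Wnt pathway and its targets, 24 were tested, 4 rose and 3 fell (median -0.08). Beside Cdx1, which the list counts as a target, the ligand Wnt8a (2.98, 3.98 and 3.61 CPM to 8.91, 8.57 and 11.2 CPM, 1.48 ± 0.16), the receptor Fzd7 (0.99 ± 0.07) and Porcn, which acylates Wnt ligands (0.67 ± 0.09), rose. The receptor Fzd5 fell from 218, 208 and 183 CPM to 70.6, 66.6 and 71.6 CPM (-1.51 ± 0.07), with Notum, a secreted Wnt inhibitor (-1.53 ± 0.14), and Ccnd1 (-0.73 ± 0.07). The common feedback target Axin2 was not called (-0.40 ± 0.10, adjusted p = 0.0107). In the Notch pathway 14 of 15 genes were tested and 4 fell: the ligand Jag1 (-1.01 ± 0.11), Lfng (-0.80), Hes6 (-0.70) and Notch1 (-0.58, at the edge of the size threshold).

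**Figure D4:**
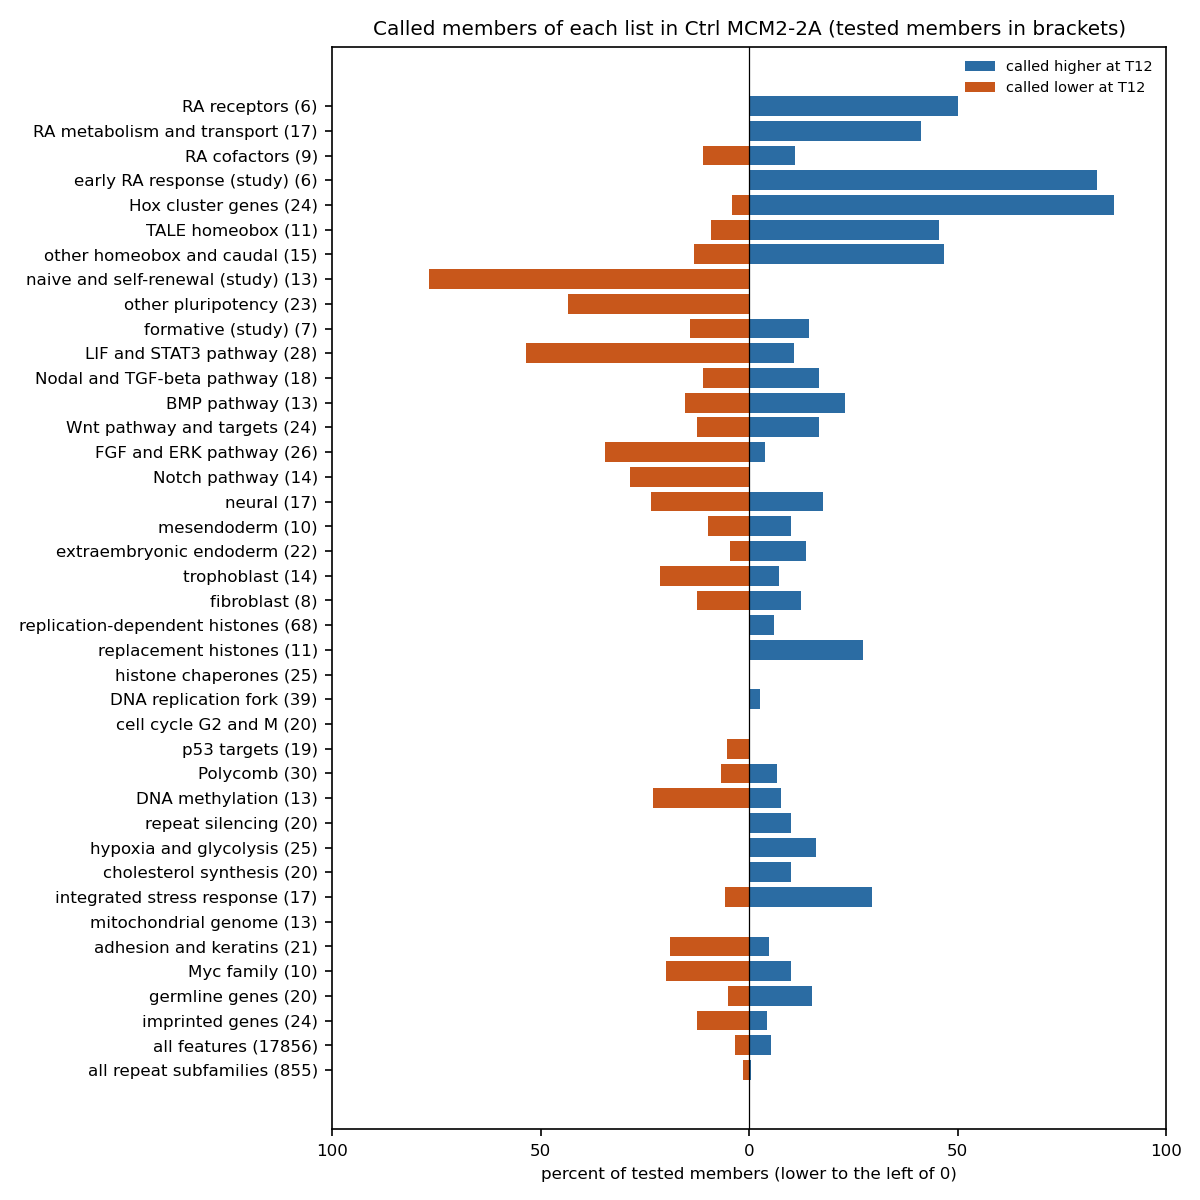
Percent of the tested members of each gene list that rose (blue, right of 0) or fell (orange, left of 0) at T12 in Ctrl MCM2-2A cells, with the number tested in brackets and all features at the bottom. Called Hox, RA receptor and RA metabolism genes lie mostly to the right, and called naive and LIF pathway genes mostly to the left. Called RA cofactors lie equally on both sides, and chaperone, cell cycle and mitochondrial genes have no called member.

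Markers of differentiated cell types moved both ways. Of 26 neural genes, 17 were tested, 3 rose (Sox3, Irx3 and Sox1) and 4 fell. Among those that fell were Tubb3, a tubulin of neurons (119, 113 and 101 CPM to 53.6, 59.7 and 61.9 CPM, -0.89 ± 0.08), Stmn2 (-0.85), Ncam1 (-1.35) and En1 (-2.28). Of 13 mesendoderm genes, 10 were tested, Mixl1 rose from 1.02, 0.995 and 0.829 CPM to 2.15, 1.84 and 2.29 CPM (1.20 ± 0.25) and Kdr fell (-1.38 ± 0.31). In 25 extraembryonic endoderm genes, of which 22 were tested, 3 rose and 1 fell. Gata6, a master regulator of that lineage, rose from 7.49, 6.58 and 7.85 CPM to 20.6, 21.3 and 22.5 CPM (1.57 ± 0.10, adjusted p = 6.41e-07), and Amn rose by 0.69 ± 0.15, while Lama1, a laminin of that lineage, fell (-0.82 ± 0.10). Gata4 had a log2 fold change of 0.49 ± 0.15 and was not called (adjusted p = 0.0305).

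The summed level of 10 defining extraembryonic endoderm markers was 48.05 to 62.8 CPM at T0 and 75.3 to 86.9 CPM at T12, of which 2 rose and 2 were under 1 CPM at both times. For 7 trophoblast markers it was 53.6 to 62.2 CPM and 49.0 to 56.3 CPM, and 1 rose and 2 fell. For 6 neural markers it was 107.3 to 126 CPM and 63.2 to 73.4 CPM, most of it from Tubb3 alone. Of these 6, 1 rose, 1 fell and 3 were under 1 CPM on average at each time. For 5 mesendoderm markers it was 9.03 to 11.4 CPM and 13.2 to 15.9 CPM, and 1 rose and 0 fell. Whether a share of cells of these types took part in the changes of other genes was not tested.

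Genes of the germline and of DNA methylation held a few large changes. Of 21 germline genes, 20 were tested, 3 rose and 1 fell. Stra8, the RA-induced gate to meiosis, rose from 29.3, 25.0 and 31.6 CPM to 249.6, 232 and 277 CPM (log2 fold change 3.16 ± 0.09, adjusted p = 1.91e-09), and Rec8, a meiotic cohesin subunit, from 16.4, 16.5 and 16.5 CPM to 41.2, 43.4 and 44.8 CPM (1.42 ± 0.07). Brdt rose (0.89 ± 0.17) and Prdm1, which specifies germ cells, fell (-0.97 ± 0.16). Among 13 genes of DNA methylation, Dnmt3b fell from 441, 406 and 378 CPM to 204, 213 and 222 CPM (-0.91 ± 0.07), Dnmt3l (-1.21 ± 0.08) and Tet1 (-0.83 ± 0.12) fell with it, and Dnmt3a rose from 539.8, 463 and 477 CPM to 704, 695 and 778 CPM (0.59 ± 0.07, close to the size threshold).

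Because MCM2 passes parental histones to new DNA, histone and replication genes were described as well. Of 68 tested genes of replication-dependent histones 4 rose and none fell (median 0.12), and all 4 (Hist1h1t, Hist1h2ba, Hist2h3c1 and Hist1h2aa) were under 30 CPM. That is 5.88% of them, near the 5.2% of all tested features that rose. Among 11 replacement histones 3 rose: H1f0 (0.84 ± 0.14), H1fx (0.70 ± 0.13) and H2afy2 (0.69 ± 0.10). No gene was called among 25 histone chaperones or 20 genes of G2 and mitosis, by edgeR or by DESeq2, where edgeR called 8.65% of all features. By edgeR 4 and 7 of them had an unadjusted p under 0.05, as did 6558 of all 17856 features. Among 39 genes of the replication fork 1 rose, Rpa1 (0.60 ± 0.07). Of 30 Polycomb genes, Kdm6b, a demethylase of H3K27me3 (0.79 ± 0.08), and Yaf2 (0.72 ± 0.13) rose, and Eed, a core subunit of PRC2 (-0.71 ± 0.06), and Epop (-0.78 ± 0.10) fell. Among 20 genes of repeat silencing, Suv39h1 (0.76 ± 0.08) and Zfp809 (0.73 ± 0.08) rose. That is 10% of these 20, near the 8.65% of all features that were called, and the 4 called Polycomb genes are 13.3% of the 30.

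Among stress and metabolic lists, the integrated stress response had the largest share of called genes, 35.3% against 8.65% of all features. Of 25 hypoxia and glycolysis genes 4 rose, namely Egln1 (1.24), Bnip3 (1.16), Vegfa (0.94) and P4ha1 (0.94). Of 17 genes of the integrated stress response 5 rose, led by Atf3 (1.33) and Vldlr (1.30) with Ddit3 (0.96), which encodes CHOP, and Cth fell (-0.69). All 20 genes of cholesterol synthesis had a fold change above 0 (median 0.40), and for 16 of them every T12 library lay above every T0 library, as it did for 18.6% of all features, but the changes were small and 2 were called, among them Msmo1 (0.67). Among 19 tested p53 targets only Btg2 was called (-0.60), and of the 13 protein-coding genes of the mitochondrial genome 0 were called by edgeR or by DESeq2 and 0 had an unadjusted p under 0.05. In the list of adhesion and keratin genes, 21 were tested, 4 fell, including Vim (-1.12 ± 0.10) and Krt42 (-1.09), and Zeb1 rose (0.62).

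Repeat RNA hardly moved as a whole. Of 855 tested repeat subfamilies 4 rose and 12 fell, and all 16 were LTR elements. The median log2 fold change was 0.02 over all subfamilies, 0.08 over 134 LINE, -0.02 over 484 LTR and 0.02 over 34 SINE subfamilies. RLTR13B2 fell from 10.1, 13.8 and 17.3 CPM to 4.61, 5.81 and 4.51 CPM (-1.44 ± 0.20, adjusted p = 0.000260), and ETnERV3-int from 21.5, 39.2 and 46.8 CPM to 13.7, 18.2 and 12.8 CPM (-1.23 ± 0.24). In both, the T0 libraries were spread widely and T0 replicate 1 was lowest. BGLII (-0.87 ± 0.08) and ERVB4_2-LTR_MM (-0.83 ± 0.15) fell as well. RLTR6-int, the internal part of a murine leukaemia virus-like element, rose from 32.9, 31.4 and 41.4 CPM to 71.0, 65.1 and 67.0 CPM (0.96 ± 0.10), followed by MMVL30-int (0.84 ± 0.08), MurERV4_19-int (0.70 ± 0.09) and RLTR4_MM-int (0.67 ± 0.08). Of the 8 features of the 2-cell-like state 0 were called by edgeR or by DESeq2 (3 at an unadjusted p under 0.05). Over all features 8.65% were called by edgeR. MERVL-int, the retrovirus that marks this state, was at 1054, 889 and 1312 CPM and 895, 795 and 786 CPM. In Ctrl cells, from other libraries, the median over these subfamilies was -0.27 in the same interval. Tested 1 by 1, the difference of the responses from Ctrl was called for 0 of the subfamilies. The difference of the medians was not tested.

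Set beside Ctrl cells, the 12 h response of Ctrl MCM2-2A cells had a called difference at few genes. In Ctrl, 1993 of 17673 features were called (11.3%), of which 1279 rose (7.24%) and 714 fell (4.04%). In a fit of all 12 libraries, the difference of the responses (Ctrl MCM2-2A minus Ctrl) was called for 57 of 18808 features (0.303%), with the response lower in Ctrl MCM2-2A for 48 (0.255%) and higher for 9 (0.0479%). By edgeR 2212 of the 18808 had an unadjusted p under 0.05, a larger share than an even spread of p gives, and DESeq2 called 117. With 3 libraries a group, a difference that was not called is not shown to be absent. Of the 57, 12 were called whichever of the 12 libraries was left out, and 45 were lost without at least 1 of them, while all 57 kept their sign. The count was 14 without Ctrl T0 replicate 1, 24 without Ctrl T0 replicate 2, 36 without Ctrl T12 replicate 2 and 29 without Ctrl T12 replicate 3. It was 30, 25 and 32 without Ctrl MCM2-2A T0 replicate 1, 2 and 3, 17 and 21 without Ctrl MCM2-2A T12 replicate 1 and 2, and 38 to 48 without 1 of the other libraries. Among the genes named for this difference, Dhrs3, Zbtb7c, Pou2f2, Pecam1, Gabrp and Has2 were called in every one of these fits, and Mixl1 was called in none of them.

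Of the 17 tested genes of RA metabolism and transport, 3 had a called difference. Dhrs3 rose in both lines, but from 1.60 ± 0.608 CPM to 33.7 ± 1.84 CPM in Ctrl and from 4.25 ± 0.150 CPM to 21.7 ± 1.65 CPM in Ctrl MCM2-2A (SD, n = 3 each), a difference of responses of -1.99 ± 0.22 (SE, adjusted p = 0.000438). Stra6 stood at 0.858 ± 0.318 CPM in Ctrl and 3.90 ± 0.451 CPM in Ctrl MCM2-2A at T0 and reached 31.3 ± 2.58 and 52.8 ± 5.39 CPM, so that it was higher in Ctrl MCM2-2A at both times and its response smaller there (-1.39 ± 0.24, adjusted p = 0.00892). Crabp2 was called in Ctrl, from 8.13 ± 0.502 CPM to 21.2 ± 2.90 CPM, and differed between the lines (-1.002 ± 0.16, adjusted p = 0.00732). For Cyp26a1 the response was 1.08 ± 0.26 larger in Ctrl MCM2-2A, and the difference was not called (adjusted p = 0.0671). The call of Dhrs3 held whichever library was left out, while those of Stra6 and Crabp2 held in 3 of 12 such fits and were lost with the replicate number as a block.

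Among the 48 genes with the lower response, most were higher in Ctrl MCM2-2A before RA, and the lines lay closer at 12 h. The T0 mean was higher in Ctrl MCM2-2A for 42 of the 48, where it was higher for 50.3% of all tested features, and the median T0 gap was 1.17 on the log2 scale. At T12 the median gap was 0.03. The T0 level is itself part of the difference tested, so that this describes the 48 genes and is no further test. Zbtb7c (2.48 ± 0.368 to 23.7 ± 2.30 CPM in Ctrl, 11.6 ± 0.494 to 28.8 ± 4.98 CPM in Ctrl MCM2-2A, difference -1.90 ± 0.19, adjusted p = 0.000438) and Pou2f2, a POU factor of B cells (3.92 ± 0.773 to 24.4 ± 1.78 CPM and 12.99 ± 0.679 to 27.4 ± 2.81 CPM, -1.52 ± 0.17, adjusted p = 0.000438), had this pattern. So did Themis2 (-1.64 ± 0.24), Irf5 (-1.76 ± 0.31) and Stra8, which reached 251 ± 22.8 CPM in Ctrl and 253 ± 22.7 CPM in Ctrl MCM2-2A from 11.6 ± 3.99 and 28.6 ± 3.34 CPM.

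Other genes had other patterns. Pecam1 was closer between the lines at T0 than at T12, rising in Ctrl from 101 ± 8.97 CPM to 224 ± 7.75 CPM and going from 85.0 ± 0.871 to 107 ± 2.16 CPM in Ctrl MCM2-2A (-0.78 ± 0.086, adjusted p = 0.000438). Gbp4, an interferon-induced GTPase, fell in Ctrl MCM2-2A from 1.84 ± 0.196 to 0.293 ± 0.110 CPM and was at 4.04 ± 0.721 and 5.43 ± 1.44 CPM in Ctrl (-2.96 ± 0.42, adjusted p = 0.00290). Adcy5, an adenylyl cyclase, went from 1.41 ± 0.339 to 6.83 ± 1.16 CPM in Ctrl and from 2.73 ± 0.344 to 4.13 ± 0.257 CPM in Ctrl MCM2-2A, so that the order of the lines turned (-1.61 ± 0.27). Klf4 fell further in Ctrl MCM2-2A, from 178 ± 26.2 to 68.2 ± 4.19 CPM against 122 ± 7.87 to 76.4 ± 3.89 CPM (-0.68 ± 0.12, adjusted p = 0.00938).

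Of the 9 genes with the higher response, all had the lower T0 mean in Ctrl MCM2-2A, although for Gabrp the lines were close at T0. Over all tested features the T0 mean was higher in Ctrl MCM2-2A for 50.3%. The T0 level is part of the difference tested here too, so that this describes the 9 genes and is no further test. Gabrp, a GABA receptor subunit, rose from 0.744, 0.536 and 0.659 CPM to 6.66, 8.17 and 7.03 CPM in Ctrl MCM2-2A and went from 0.813 ± 0.173 to 1.70 ± 0.256 CPM in Ctrl (2.46 ± 0.33, adjusted p = 0.00234). Has2, which makes hyaluronan, rose in Ctrl MCM2-2A and reached the Ctrl level at T12 (5.00 ± 0.408 against 4.82 ± 0.384 CPM) from a lower start (2.01 ± 0.595 against 7.06 ± 1.05 CPM, 1.83 ± 0.24). Zfp703 rose more in Ctrl MCM2-2A than in Ctrl (1.70 ± 0.25). Atf3 (1.38 ± 0.20) and Mixl1 (1.86 ± 0.32) rose in Ctrl MCM2-2A and had log2 fold changes of -0.05 and -0.67 in Ctrl, and Gjb5, a gap junction gene, fell less (1.06 ± 0.17).

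**Figure D5:**
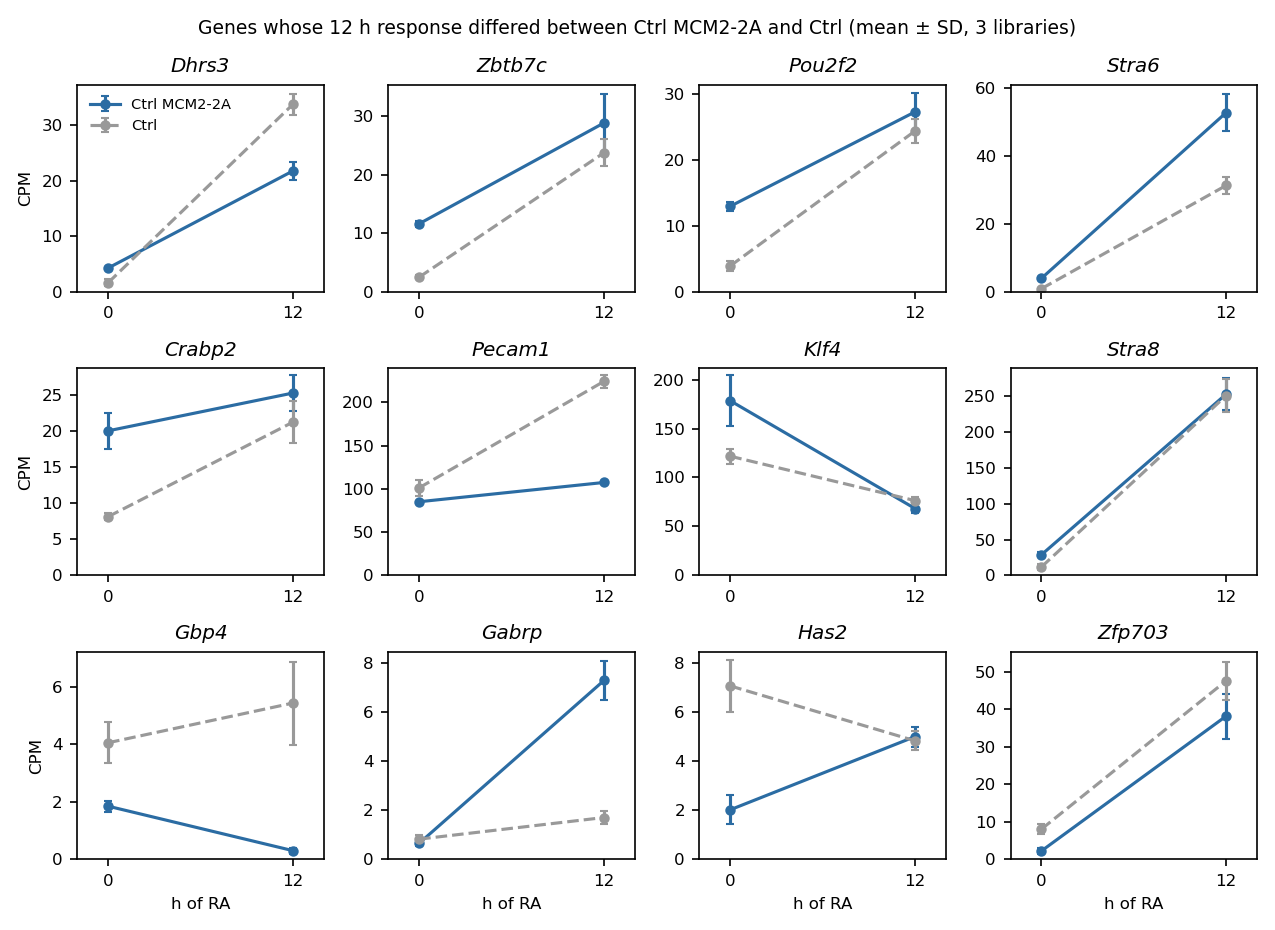
Mean level in CPM ± SD (3 libraries) at 0 h and 12 h of RA in Ctrl MCM2-2A (blue, solid) and Ctrl (grey, dashed) for 12 genes whose response differed between the lines. Zbtb7c, Pou2f2, Stra8 and Crabp2 start higher in Ctrl MCM2-2A and end near Ctrl, Pecam1 starts close and parts, and Gabrp rises in Ctrl MCM2-2A.

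In dPOLE4 MCM2-2A cells, which differ from Ctrl MCM2-2A cells by the degradation of POLE4, 1424 of 18284 features were called in the same interval (7.79%), of which 786 rose (4.3%) and 638 fell (3.49%). The difference of the 2 responses was called for 0 of 18842 features by edgeR and for 0 by DESeq2. By edgeR 737 of the 18842 had an unadjusted p under 0.05, a smaller share than the 0.05 that an even spread of p gives. Cyp26a1 was at 1.65 ± 0.121 CPM and 88.4 ± 8.31 CPM in dPOLE4 MCM2-2A, and its response was -1.23 ± 0.25 relative to that of Ctrl MCM2-2A (adjusted p = 0.997). Cyp26b1, with -1.21 ± 0.43, was not called either. Nanog was at 442 ± 29.8 CPM and 263 ± 11.5 CPM, a difference of 0.26 ± 0.11, and Socs3 at 82.2 ± 14.8 CPM and 18.8 ± 0.661 CPM, a difference of 0.15 ± 0.20. With standard errors of this size, differences that miss the threshold do not show that POLE4 loss left the response alike.

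The later libraries of Ctrl MCM2-2A cells, at 24 h (T24) and 60 h (T60) of RA, are given as mean CPM without a test. Some genes of the first 12 h went on rising: Cyp26a1 was at 136, 178 and 251 CPM at T12, T24 and T60, Cyp26b1 at 34.5, 61.3 and 305, and Rarb at 8.78, 17.2 and 33.3. Others were highest at T24, with Cdx1 at 48.4, 136 and 55.1 CPM, Stra8 at 253, 423 and 244, and Lefty1 at 243, 320.4 and 14.1. Nanog (208, 182 and 79.3), Zfp42 (215, 119 and 42.5) and Pou5f1 (722, 480.5 and 98.9) went on falling, so that Pou5f1, little lower at T12, was low at T60. In the LIF pathway, Lifr was at 88.1, 44.2 and 242 CPM and Stat3 at 42.1, 50.9 and 102 CPM, so that both were higher again at T60 and Lifr was above its T0 mean of 191 CPM. Gata6 and Gata4, at 21.5 and 10.7 CPM at T12, were at 93.1 and 82.0 CPM at T60.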

How the data were processed

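RNA of POLE4-dTAG mESCs was depleted of rRNA and made into stranded libraries, prepared in triplicate, and sequenced as read pairs. The authors trimmed reads (cutadapt 4.2, per the labels), aligned them to mm10 with STAR and counted reads per gene and repeat subfamily with TEcount (GENCODE M25). The deposited table holds these raw counts for 55487 genes and 1146 repeat subfamilies. TEcount shares out reads that map to several places, so counts of near-identical genes, histones and repeats are less certain. Gene names were taken from GENCODE M21, which matched 55227 of the gene identifiers. The treatment protocol in the labels does not list the 12 h time, and the times were taken from titles and time tags.

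Counts were tested with edgeR 4.0.16 (R 4.3.3, quasi-likelihood F test, TMM factors over genes and repeats, filterByExpr with a minimum count of 10 and a total of 15) on the 6 libraries of the comparison, with Benjamini-Hochberg adjustment over all tested features. Called means an adjusted p under 0.01 and a log2 fold change beyond 0.58, the study's thresholds. Differences between responses were tested as an interaction over 12 libraries. CPM are TMM-normalized, and levels per kilobase are CPM divided by exon length. Counting intervals are exact at 95% and cover counting error only. The study calls the 3 libraries of a group biological replicates, and the p-values measure the spread between them. DESeq2 1.42.0 (the study's tool), other scalings, filters and thresholds, a replicate block and leaving out each library were alternatives, and the scripts were tested on simulated counts.

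Named genes were those the study names for its RA experiment, the 12 with the largest fold change in each direction that averaged at least 2 CPM in the higher group, did not overlap between groups and had no provisional symbol, called or central members of the gene lists, and genes with the largest called differences between lines. Members and lists were chosen with earlier results of these data known. Promoter sequences are from RefSeq (GRCm38.p6). Other cell groups and times of the series were not analysed here beyond the values given, and the values of some genes are not reported here.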

Additional observations from a re-analysis of the deposited data

Results flagged for a closer look

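The difference of the 12 h response between the lines (Ctrl MCM2-2A minus Ctrl, log2 scale, edgeR's quasi-likelihood test of the interaction, adjusted p under 0.01) was called for 22 of the genes named here, and these are listed because the difference itself passed the test. Many of these calls were not stable. Out of 12 fits that left out 1 library each, Mixl1 was called in 0, Adcy5, Klf4 and Sgk1 in 1, Dnmt3a, Stra8, Gjb5 and Irf5 in 2, Stra6 and Crabp2 in 3, Atf3 and Zfp703 in 8, Themis2 in 9, Gbp4 in 10, Trh in 11, and Dhrs3, Pecam1, Halr1, Zbtb7c, Pou2f2, Has2 and Gabrp in all 12. With the replicate number as a block, Mixl1, Adcy5, Klf4, Sgk1, Dnmt3a, Irf5, Stra6 and Crabp2 lost the call.

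The response was lower in Ctrl MCM2-2A for Dhrs3 (-1.99 ± 0.22), Stra6 (-1.39) and Crabp2 (-1.002), which belong to RA metabolism and transport. None of the 6 early RA response genes that the study follows had a called difference, which does not show that their responses were alike. Their median log2 fold change was 1.38 in Ctrl MCM2-2A and 2.42 in Ctrl, and the difference of these medians was not tested. The response was also lower in Ctrl MCM2-2A for Stra8 (-1.27 ± 0.21) and Halr1, a long non-coding RNA gene beside HoxA (-0.95 ± 0.11, adjusted p = 0.000896). Halr1 rose from 15.3, 16.2 and 17.1 CPM to 52.1, 57.6 and 54.1 CPM in Ctrl MCM2-2A and from 8.80 ± 0.317 CPM to 58.1 ± 4.34 CPM in Ctrl, so that the lines were apart at T0 and near each other at T12.

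Among regulators and pluripotency genes the response was lower for Zbtb7c (-1.90), Pou2f2 (-1.52), Klf4 (-0.68), Pecam1 (-0.78), Trh (-1.09 ± 0.15) and Dnmt3a (-0.60 ± 0.099). Trh, a neuropeptide gene that naive cells express, fell from 309 ± 43.2 CPM to 113 ± 8.87 CPM in Ctrl MCM2-2A and was at 84.8 ± 4.82 CPM and 67.7 ± 11.4 CPM in Ctrl. Dnmt3a went from 493 ± 40.9 CPM to 726 ± 45.8 CPM in Ctrl MCM2-2A and from 175 ± 4.60 CPM to 398 ± 35.1 CPM in Ctrl. It was lower for Gbp4 (-2.96), Irf5 (-1.76) and Themis2 (-1.64), which act in immune cells, and for the signalling genes Adcy5 (-1.61) and Sgk1 (-0.65 ± 0.11).

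The response was higher in Ctrl MCM2-2A for Gabrp (2.46), Mixl1 (1.86), Has2 (1.83), Zfp703 (1.70), Atf3 (1.38) and Gjb5 (1.06).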

How the results depend on the processing

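The number of features called at T12 in Ctrl MCM2-2A cells, 1545, lay between 1309 and 1920 with DESeq2, DESeq2 size factors in edgeR, TMM factors from genes alone, a minimum of 10 counts in every library or none, robust estimation, and all 8 Ctrl and Ctrl MCM2-2A groups in the fit, and between 1140 (without T12 replicate 1) and 1454 (without T0 replicate 1) when 1 library was left out. DESeq2 called 1489, of which 1434 were shared. Without the fold threshold the count was 2636 in Ctrl MCM2-2A, 3550 in Ctrl and 2279 in dPOLE4 MCM2-2A, and tested against a 1.5-fold change by glmTreat it was 521, 770 and 439. The difference between Ctrl MCM2-2A and Ctrl, with 57 features, gave 117 by DESeq2, 219 with no filter, 2 by glmTreat and 14 to 48 when 1 library was left out. The difference between dPOLE4 MCM2-2A and Ctrl MCM2-2A, with 0, gave 27 with no filter and 0 without any 1 library. The cause of these shifts was not tested.

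The replicate numbers did not pair T0 with T12 in Ctrl MCM2-2A cells: the deviations of same-numbered libraries from their group means correlated at -0.0198, 0.111 and -0.198. With the replicate number as a block the count was 1396 in Ctrl MCM2-2A, and 34 for the difference from Ctrl. Between dPOLE4 MCM2-2A and Ctrl MCM2-2A, same-numbered libraries correlated at 0.329, 0.143 and 0.282 at T0 and at 0.0871, -0.00793 and -0.175 at T12, and with the block the difference of these responses was called for 0 features, as without it.

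Of 184 called genes and repeats named in the text, 145 were called in each of the 12 alternatives that tested them, and 0 changed sign. Of the 39 that lost the call somewhere, Cfap45, Dnmt3a, Hoxc12, Jak2, Kdr, Mixl1 and Rxrg lost it under another tool, scaling, filter or the block, and 32 only without 1 library (Amn, Brdt, Btg2, Cdx2, Chrd, Cish, Ddit3, Dppa3, ERVB4_2-LTR_MM, ETnERV3-int, En1, Evx1, Gm1043, H1fx, Hes6, Hist2h3c1, Hoxd1, Id1, Irx3, Klf2, Lfng, Notch1, Pim3, Porcn, Ppbp, Pramel6, Rdh12, Rpa1, Sox2, Sox4, Stat5b and Zeb1). A further 7 genes, which were not called, changed sign. Their log2 fold changes without 1 library ran from -0.0842 to 0.0340 for Etv4, -0.390 to 0.00772 for Hoxc13, -0.0218 to 0.000657 for Ncor1, -0.0452 to 0.0835 for Nodal, -0.00969 to 0.160 for Pole4, -0.124 to 0.0279 for Rdh10 and -0.0744 to 0.0866 for Tyk2. With TMM factors from genes alone Nodal was at -0.000961. With no filter Nodal and Tyk2 were at -0.00508 and -0.00326, and with 10 counts in every library at -0.00190 and -3.28e-05. List medians moved by less than 1 SD in 512 of 528 pairs of list and alternative.

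Depth limits the low genes: at 3 libraries a group, the median standard error of a log2 fold change was 0.120, and 13 HoxC and HoxD genes stayed below the filter.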

Other observations

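The transcripts of the imprinted Meg3 to Mirg locus on chromosome 12 (chr12:109541001-109749460, mm10), which are read from the maternal allele, were lower at T12 in Ctrl MCM2-2A cells. This region was chosen after its values were seen. Of 90 annotated features on the strand of Meg3, 23 were tested, all 23 had a fold change under 0 and 15 fell, against 3.45% of all tested features that fell, with a median log2 fold change of -1.45 and a range from -2.30 to -0.57. Neighbouring features of 1 long transcription unit can share reads and are not independent. Several of the 23 were under 0.5 CPM at T12 and passed the filter on low counts through T0, so that many of those had to fall. Among them were Mir382 (mean 0.862 to 0.233 CPM) and Mir540 (1.01 to 0.196 CPM). For that reason the counts over the locus cannot be set against 3.45%. The host transcripts Meg3, Rian and Mirg were well above the filter at both times. The long non-coding RNA gene Meg3 fell from 201, 215 and 212 CPM to 79.5, 66.4 and 75.4 CPM (-1.47 ± 0.08, adjusted p = 1.04e-07), Rian from a mean of 322 CPM to 118 CPM and Mirg from 72.3 CPM to 26.8 CPM. Of 15 tested miRNA genes of the locus 7 fell, although a library of this kind reads their host transcript and not mature miRNAs. In Ctrl cells 15 features of the locus fell as well, with a median of -1.44. In the later Ctrl MCM2-2A libraries, Meg3 was at 130.0 CPM at T24 and 505 CPM at T60, and Rian and Mirg were at 623 and 124 CPM at T60, above their T0 means.

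Non-coding features inside the Hox clusters were also chosen after their values were seen. Of 20 features of HoxA that are not Hox genes, 9 were tested and all 9 rose, and 8 rose in Ctrl. Over all tested features 5.2% rose. The 9 averaged at most 0.290 CPM at T0 and so passed the filter on low counts through T12. Most of them therefore had to differ, and their number cannot be set against that share. Some of the 9 also had few reads at T0, so that the size of their rise is uncertain. One of them was Hotairm1, a non-coding RNA gene at the 3′ end of the cluster, which went from 0.279, 0.153 and 0.439 CPM to 7.03, 5.58 and 8.63 CPM (4.39 ± 0.29). In HoxB 3 of 9 such features were tested and Hoxb3os rose, from 0.0930, 0.153 and 0.0976 CPM to 2.52, 1.84 and 2.98 CPM (4.47 ± 0.38). Hoxb3os passed the filter in the same way. The libraries kept the strand, but features that overlap a Hox gene on the same strand can hold its reads.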
